A study of Mus musculus with 9 samples.

Results

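Transcripts of 9 receptor genes through which blood progenitors receive cytokines were followed in sorted mouse bone marrow progenitors that carried a mutant Jak2 or no mutation. The genes are Epor, Kit, Csf3r, Csf2ra, Csf2rb, Csf2rb2, Il3ra, Il6ra and Il6st. They were taken by symbol from a count table of 17769 genes, in which all 9 were found, and all 9 were among the 13608 genes with enough counts to be tested. The libraries fall into 3 groups of 3. E12 cells came from SclCre;Exon12 mice 6 weeks after tamoxifen, VF cells from SclCre;V617F mice 12 weeks after tamoxifen, and WT cells from mice labelled wild type at 12 weeks. All were on the strain background C57BL/6N and all came from bone marrow sorted as MEP, the progenitors of megakaryocytes and red cells. Tamoxifen, given in 5 daily injections, switches on a Cre recombinase that the name SclCre places under Scl, a gene of stem and progenitor cells. The mutation is therefore expected in cells in which Scl drove the Cre and in their progeny, and the share of mutant cells per library was not given. Whether WT mice carried SclCre was not stated, nor whether each library was a separate mouse, so p-values measure the spread between these libraries, which may be technical. E12 differed from the other groups in genotype and in time, and these cannot be told apart. The code in the description of each WT library is numbered apart from those of both mutants. What the code stands for is not stated, and whatever it marks cannot be told apart from genotype.

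Most of these receptors have no enzyme of their own. Epor, Csf3r, the beta chains Csf2rb and Csf2rb2 and the gp130 chain Il6st are bound on their inner side by kinases of the Jak family, and the kinase that serves Epor and the beta chains is Jak2. A mutant Jak2 of the V617F type still needs such a receptor as a scaffold, and mutations of exon 12 are known in patients with an excess of red cells. Kit stands apart: it is a receptor tyrosine kinase with its own kinase domain, and it answers to stem cell factor. Csf2ra, Il3ra and Il6ra are the chains that give the GM-CSF, interleukin 3 and interleukin 6 receptors their ligand specificity.

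The gene regions lie on GRCm38 as follows. Epor is at chr9:21958897-21963576, Kit at chr5:75574987-75656722, Csf3r at chr4:126023441-126044975 and Csf2ra at chr19:61217191-61228461. Csf2rb at chr15:78325800-78351001 and Csf2rb2 at chr15:78282507-78305721 are neighbours. Il3ra is at chr14:14345912-14355493, Il6ra at chr3:89869324-89913196 and Il6st at chr13:112464070-112506860.

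The receptor with its own direction in these data, Epor, and 2 that went the other way, Csf3r and Il6ra, are shown by the 250 bases before their transcription start (RefSeq, GRCm38.p6), in the direction of the gene. The start used for Csf3r lies inside its gene region, which also reaches further upstream. Capitals mark the GATA words, which are AGATAA and also AGATAG, or TGATAA and also TGATAG, and which the erythroid factor Gata1 can bind. They also mark the word GAGGAA, the core bound by the myeloid factor PU.1, on either strand. The windows are chr9:21963577-21963826 on the minus strand for Epor, chr4:126024409-126024658 on the plus strand for Csf3r and chr3:89913197-89913446 on the minus strand for Il6ra.
Epor: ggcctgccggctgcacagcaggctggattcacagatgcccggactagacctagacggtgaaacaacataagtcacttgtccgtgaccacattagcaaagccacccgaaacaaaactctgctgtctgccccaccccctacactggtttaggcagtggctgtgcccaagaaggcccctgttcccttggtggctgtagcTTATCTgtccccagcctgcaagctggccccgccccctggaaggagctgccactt
Csf3r: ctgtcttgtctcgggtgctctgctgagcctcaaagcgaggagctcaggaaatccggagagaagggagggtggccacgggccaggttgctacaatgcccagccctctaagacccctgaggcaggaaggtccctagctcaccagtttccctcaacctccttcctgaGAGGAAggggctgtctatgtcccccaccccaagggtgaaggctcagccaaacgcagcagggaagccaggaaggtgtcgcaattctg
Il6ra: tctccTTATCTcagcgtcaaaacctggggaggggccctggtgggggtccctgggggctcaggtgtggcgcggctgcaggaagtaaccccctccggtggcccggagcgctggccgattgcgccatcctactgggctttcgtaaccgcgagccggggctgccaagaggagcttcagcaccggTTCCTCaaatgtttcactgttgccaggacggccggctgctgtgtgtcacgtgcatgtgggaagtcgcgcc
The Epor window held 1 GATA word, on the opposite strand, 49 to 54 bases before the start, and its count of GAGGAA was 0. Csf3r held 1 GAGGAA, 81 to 86 bases before its start, and its count of GATA words was 0. Il6ra held both, a GATA word at 240 to 245 bases and GAGGAA at 65 to 70 bases, each on the opposite strand. Of the receptors not shown, Kit and Csf2ra held GAGGAA alone, Il3ra a GATA word alone, Csf2rb2 both and Il6st neither. Among the 8 receptors with a window in the table, 4 held a GATA word and 5 held GAGGAA, against 26.5% and 23.3% of all 32851 windows, so the words are common and a match describes only the letters.

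Csf2rb, the beta chain shared by the receptors for GM-CSF, interleukin 3 and interleukin 5, and Csf2rb2, a beta chain that in the mouse serves interleukin 3 alone, are near copies. Their first 120 coding bases (GENCODE M21, GRCm38) are given because the likeness bears on how reads are shared out between them, and capitals mark the bases at which they differ. They span chr15:78335207-78336379 on the plus strand for Csf2rb and chr15:78297071-78298229 on the minus strand for Csf2rb2, introns left out.
Csf2rb: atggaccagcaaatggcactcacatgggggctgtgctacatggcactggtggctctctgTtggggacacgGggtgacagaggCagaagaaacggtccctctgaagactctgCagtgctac
Csf2rb2: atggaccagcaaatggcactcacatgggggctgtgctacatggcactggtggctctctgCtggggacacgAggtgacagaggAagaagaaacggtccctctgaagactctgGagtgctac
These stretches differed at 4 bases. Over the whole coding sequence 95.2% of 2631 aligned bases were identical. Of all stretches of 50 bases in the Csf2rb transcript 18.9% were also in that of Csf2rb2, and of those of 100 bases 7.16%. How the authors counted reads that match both genes is not given in the sources used here, so the split between the 2 genes is uncertain.

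Depth and composition differed between groups. Total counts ran from 20328414 to 23499914 in E12, from 19256431 to 21331168 in VF and from 33838681 to 39736096 in WT, yet 12.4% to 18.7% of genes had no count in E12 and 10.7% to 12.4% in VF, against 27.2% to 30.1% in WT. Genes longer than 5 kb held 14.2% to 16.3% of the counts in E12 and 14.7% to 15.2% in VF, against 4.37% to 7.92% in WT. WT 50 stood apart with 27.9% of its counts in genes under 1 kb, and E12 5 with 3.37% in hemoglobin genes. Levels below are CPM, the counts scaled to a common library size with TMM factors, as mean ± SD with n = 3. Log2 fold changes, standard errors (SE) and p-values come from the quasi-likelihood test of edgeR, with p adjusted across the tested genes by the Benjamini-Hochberg method, and a gene is called at an adjusted p under 0.05. For a single gene, exact permutation of 3 libraries against 3 allows no p below 0.1.

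The label MEP was checked against markers. Erythroid Klf1 had counts in every group, and megakaryocyte markers were scarce in WT. The erythroid markers summed to 8603 to 12680 CPM in E12 and 1366 to 2097 CPM in VF, against 22360 to 32940 CPM in WT. The megakaryocyte markers summed to 305.8 to 387.1 CPM in E12 and 1670 to 2208 CPM in VF, against 51.73 to 181.2 CPM in WT, where 2 of the 9, Itgb3 and Gp6, had no count and Itga2b had 5 counts in WT 50. The stem and multipotent progenitor markers summed to 282 to 524.6 CPM in E12 and 1280 to 1372 CPM in VF, against 29.8 to 36.45 CPM in WT, where 3 of the 8, Mecom, Procr and Tek, had no count. Cd34, a surface protein that the usual MEP sort requires to be absent, was at 211 ± 85.2 CPM in E12 and 659.6 ± 23.2 CPM in VF, against 3.63 ± 1.17 CPM in WT. The gate was not stated in the labels. B cell markers summed to 28.27 to 611 CPM in E12 and 127.5 to 253.6 CPM in VF, against 328.3 to 3771 CPM in WT. Here E12 and WT overlapped. The sorted cells thus differed between groups in the transcripts of several cell types, and in bulk RNA fewer cells of a type and less RNA per cell cannot be told apart.

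**Figure D1:**
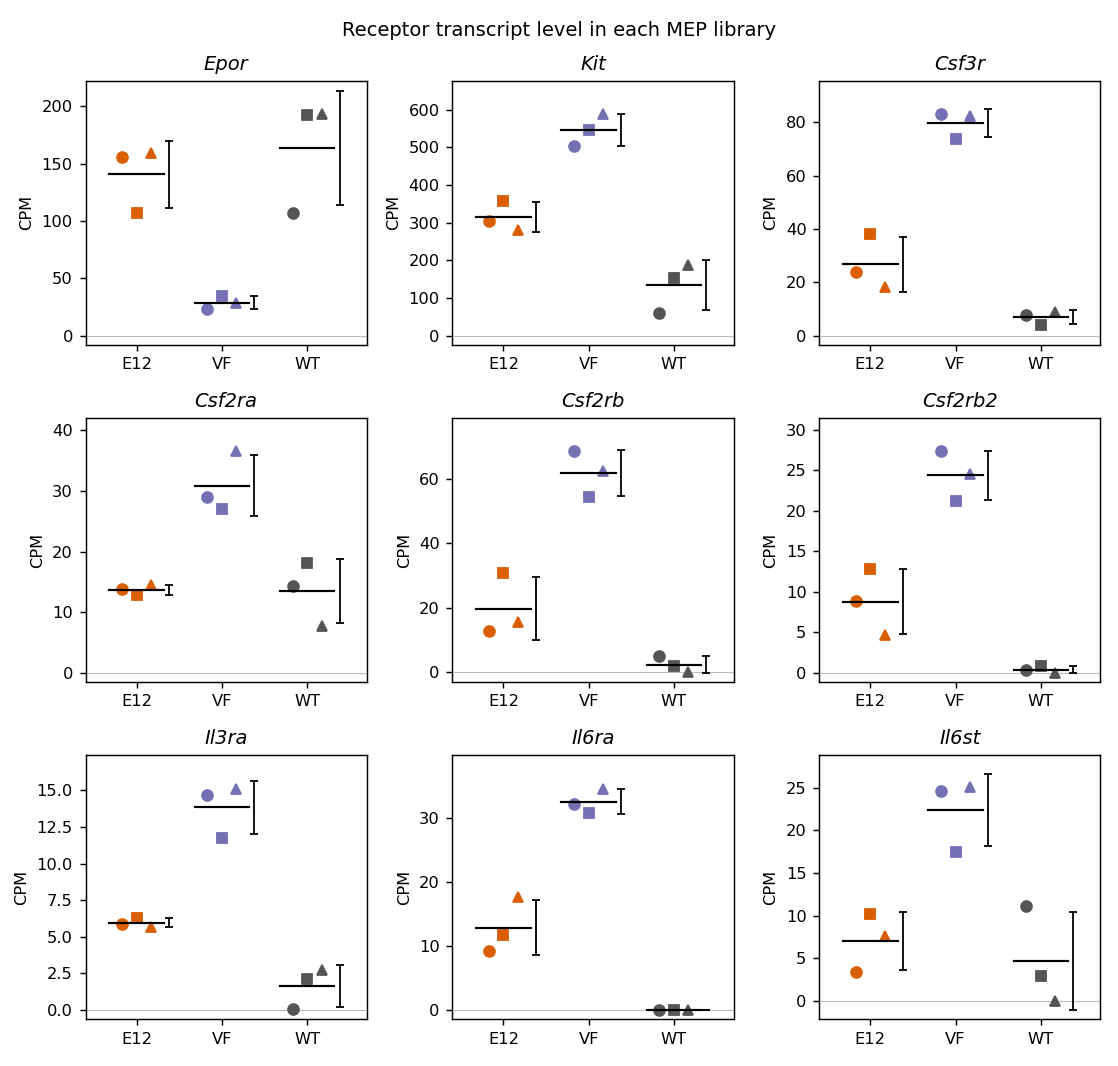
Level of each receptor gene in CPM (linear axes) in the 9 libraries, grouped as E12, VF and WT. Circle, square and triangle mark libraries 1, 2 and 5 of E12, 1, 2 and 3 of VF, and 50, 51 and 52 of WT, the line is the mean and the bar beside it ± SD (n = 3). Epor is low in VF, where it stays under 35 CPM, and 6 of the other genes step down from VF through E12 to WT.

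In CPM Epor was lowest in VF, where Kit was highest. Epor, the receptor for erythropoietin that keeps late erythroid progenitors alive, was at 155.6, 107 and 159.8 CPM in E12 1, 2 and 5, at 23.55, 34.92 and 28.51 CPM in VF 1, 2 and 3, and at 106.7, 192.2 and 193.2 CPM in WT 50, 51 and 52. In CPM all VF libraries lay below all E12 and all WT libraries, while E12 and WT overlapped. Per transcript length (TPM) VF and WT did overlap, with 32.37, 48.5 and 40.89 TPM in VF 1, 2 and 3 and 32.22, 137.6 and 158.6 TPM in WT 50, 51 and 52. Kit had 304.8, 357.9 and 281.7 CPM in E12, 502.7, 544.9 and 587.5 CPM in VF, and 60.79, 153.9 and 187.5 CPM in WT. The groups of Kit did not overlap, with VF highest and WT lowest. In TPM, the Epor level divided by the Kit level was 1.45, 0.847 and 1.61 in E12 1, 2 and 5, 0.133, 0.182 and 0.138 in VF 1, 2 and 3, and 4.97, 3.54 and 2.92 in WT 50, 51 and 52. The ratio was therefore lowest in every VF library and highest in every WT library. Epor (1829 bases) is shorter than Kit (5181 bases), and TPM does not remove the lean of the WT counts to short genes. With a trend on length removed (below), Epor and Kit had similar log2 fold changes in E12 against WT. The order of E12 and WT in this ratio thus depended on the handling of length.

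In VF against WT, 7 of the 9 receptors rose and 1, Epor, fell. Among all 13608 tested genes 48.6% were called, 27.7% higher and 20.9% lower, and the median log2 fold change was 3.06 over the receptors against 0.36 over all genes. The median over the receptors is the same with Il6ra, which had no count in WT, at its lower bound. In CPM all 9 receptors had groups that did not overlap, 8 above and 1 below WT, as did 62.7% of all tested genes, 39.7% above and 23% below.

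Among the receptors that form their own homodimers, Epor was at 28.99 ± 5.7 CPM in VF and 164 ± 49.6 CPM in WT (log2 fold change -2.5, SE 0.32, adjusted p = 0.00063). The erythroid markers fell with it, 9 of 10 by edgeR, Klf1 by 4.44 on the log2 scale, and their part in the result was not tested. Csf3r, the receptor for G-CSF that drives neutrophil production, had 82.97, 73.57 and 82.15 CPM in VF 1, 2 and 3, against 7.895, 4.018 and 9.078 CPM in WT 50, 51 and 52. Every VF library was far above every WT library (log2 fold change 3.51, SE 0.4, adjusted p = 0.00041). Of the neutrophil precursor markers 7 of 10 rose, and their sum ran from 7024 to 13070 CPM in VF and from 341.6 to 4845 CPM in WT, where 1 of the 10, Gfi1, had no count. Mpo, which encodes myeloperoxidase, was at 6888 ± 2076 CPM in VF and 129 ± 84.3 CPM in WT. The other 3 had log2 fold changes of -2.7 (Camp), -2.2 (S100a8) and -0.37 (Ltf) with overlapping groups and were not called by edgeR, while DESeq2 called 2 of the 10 lower. The part of these markers in the Csf3r result was not tested.

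Kit, the receptor for stem cell factor on stem, progenitor and mast cells, was at 545 ± 42.4 CPM in VF and 134 ± 65.6 CPM in WT (log2 fold change 2.02, SE 0.39, adjusted p = 0.0036). Stem and multipotent progenitor markers rose with it, 8 of 8, and of the markers of mast cells, basophils and eosinophils 4 of 8 tested rose, with sums of 320.7 to 412.3 CPM in VF and 28.59 to 192 CPM in WT. Of the megakaryocyte markers 7 of 8 tested rose, with a median log2 fold change of 4.89. Cpa3, a mast cell protease, was at 167 ± 20.5 CPM in VF and 38.1 ± 13.3 CPM in WT. The part of these cells in the Kit level was not tested.

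All 4 chains of the GM-CSF and interleukin 3 receptors rose in VF. Csf2rb had 68.53, 54.3 and 62.53 CPM in VF 1, 2 and 3, against 5.08, 1.806 and 0 CPM in WT 50, 51 and 52 (log2 fold change 4.78, SE 1.18, adjusted p = 0.0096). Csf2rb2 had 27.31, 21.17 and 24.53 CPM in VF, against 0.3865, 0.8409 and 0 CPM in WT (log2 fold change 5.86, SE 1.05, adjusted p = 0.0025). Every VF library was above every WT library for both beta chains. The 0 in WT 52 allows a level of up to 0.102 CPM each, from 3 counts, an upper limit that covers counting error only. With the 2 genes summed, 6 of 8 receptors rose and 1 fell. Among the alpha chains, Il3ra was at 14.67, 11.78 and 15.13 CPM in VF, against 0.05521, 2.118 and 2.754 CPM in WT, where WT 50 had 1 count (log2 fold change 3.06, SE 0.91, adjusted p = 0.021). Csf2ra, the chain that binds GM-CSF, had 28.92, 27.02 and 36.49 CPM in VF and 14.36, 18.16 and 7.752 CPM in WT (log2 fold change 1.2, SE 0.35, adjusted p = 0.019). Of the monocyte markers 5 of 7 rose, with sums of 209.7 to 314.6 CPM in VF and 20.33 to 59.08 CPM in WT, and their part in these levels was not tested.

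The 2 chains of the interleukin 6 receptor differed in their calls. Il6ra, which binds interleukin 6, had 32.22, 30.71 and 34.59 CPM in VF 1, 2 and 3 and no count in any WT library. It was at least 862-fold higher in VF, with WT set to 3 counts over the group (edgeR adjusted p = 0.00012). Il6st, the signalling chain shared with the receptors for leukemia inhibitory factor, oncostatin M and others, had 24.61, 17.48 and 25.02 CPM in VF, against 11.1, 2.865 and 0 CPM in WT. Its groups did not overlap, but the WT libraries spread so widely that it was not called (log2 fold change 2.27, SE 1.28, adjusted p = 0.17). Whether the 2 chains differed from each other was not tested.

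The calls of Csf2ra and Il3ra were the least firm. Csf2ra lost its call without VF 3 (adjusted p = 0.0764) or WT 52 (adjusted p = 0.0526, log2 fold change 0.65), and with RLE factors, every gene with a count, the deposited levels or the 2 groups fitted alone (adjusted p from 0.0527 to 0.191). Il3ra lost its call without VF 1 (adjusted p = 0.0551), without VF 3 (0.0572) or with the 2 groups alone (0.0661). With the 2 groups alone 5 receptors were higher and 1 lower, against 37.4% of genes called, 21.3% higher and 16.2% lower. Without WT 50, Il6st was called (log2 fold change 3.74, adjusted p = 0.0317).

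**Figure D2:**
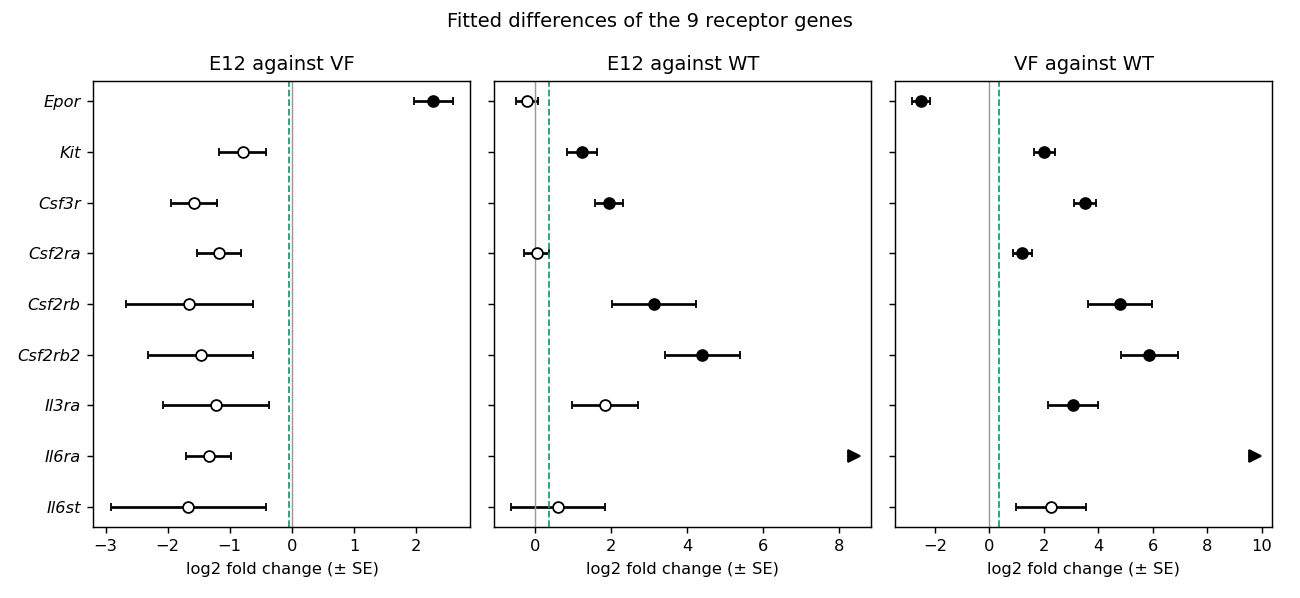
Log2 fold change (± SE) of each receptor in 3 comparisons, from 1 edgeR fit of all 9 libraries. Filled points are called at an adjusted p under 0.05, the triangle for Il6ra is a lower bound set by 3 counts over WT, and the dashed line is the median of all tested genes. Epor lies to the left in VF against WT and to the right in E12 against VF, and every other receptor lies to the left in E12 against VF.

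In E12 against WT, 5 receptors rose and the count that fell was 0, with Epor near its WT level. By edgeR 42% of all tested genes were called, 23.9% higher and 18.1% lower, and the median log2 fold change was 1.84 over the receptors, unchanged with Il6ra at its bound, against 0.36 over all genes. For 6 of the 9 receptors E12 lay above WT without overlap, and for 0 below, against 33% and 20.3% of all tested genes, or 53.3% in either direction. The number lower in E12 was 0 also by DESeq2, by limma-voom and at an unadjusted p under 0.05.

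Epor was at 140.8 ± 29.4 CPM in E12 and 164 ± 49.6 CPM in WT, and the difference was not called (log2 fold change -0.22, SE 0.3, adjusted p = 0.58). Of the erythroid markers 3 of 10 fell in E12, Klf1 to 715.5 ± 107.5 CPM, against 2447 ± 880.3 CPM in WT. Csf3r, at 26.8 ± 10.4 CPM in E12 and 6.997 ± 2.65 CPM in WT, rose (log2 fold change 1.94, SE 0.38, adjusted p = 0.0054). Here the neutrophil precursor markers did not move one way, with 2 of 10 higher and 2 lower, and their sum ran from 1674 to 2243 CPM in E12 and from 341.6 to 4845 CPM in WT. Mpo was higher in E12 (log2 fold change 3.48, adjusted p = 0.0026) and Elane, another granule protein, was not called (log2 fold change -1.14, adjusted p = 0.23).

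Kit was at 315 ± 39.1 CPM in E12 and 134 ± 65.6 CPM in WT (log2 fold change 1.23, SE 0.39, adjusted p = 0.03). In the same comparison 7 of 8 stem and multipotent progenitor markers, 4 of 8 tested megakaryocyte markers and 4 of 7 monocyte markers rose, and their part in the receptor levels was not tested. The beta chain Csf2rb was at 12.84, 30.74 and 15.59 CPM in E12 1, 2 and 5, and Csf2rb2 at 8.862, 12.8 and 4.689 CPM, each above every WT value given before. Their log2 fold changes were 3.13 (SE 1.1, adjusted p = 0.046) and 4.4 (SE 0.99, adjusted p = 0.0086). The alpha chains were not called: Il3ra was at 5.956 ± 0.304 CPM in E12 and 1.642 ± 1.41 CPM in WT (log2 fold change 1.84, SE 0.87, adjusted p = 0.12), and Csf2ra at 13.7 ± 0.841 CPM in E12 and 13.4 ± 5.27 CPM in WT (log2 fold change 0.03, SE 0.34, adjusted p = 0.96). For Csf2ra the groups overlapped, for Il3ra they did not. Il6ra had 9.253, 11.73 and 17.58 CPM in E12 1, 2 and 5 and, with no count in WT, was at least 341-fold higher in E12 (edgeR adjusted p = 0.00041). Il6st, at 3.357, 10.17 and 7.555 CPM in E12, overlapped with WT (log2 fold change 0.6, SE 1.23, adjusted p = 0.72).

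Csf3r, Csf2rb2 and Il6ra were the firmer calls in E12 against WT. Kit and Csf2rb lost theirs without any 1 VF library (adjusted p from 0.0517 to 0.0529 for Kit and from 0.0741 to 0.0758 for Csf2rb) or any 1 E12 library (0.0605 to 0.0938 for Kit and 0.073 to 0.131 for Csf2rb). Csf2rb lost it also without WT 51 (0.158). With the 2 groups fitted alone the receptors called were Csf3r and Il6ra, both higher, against 23.2% of genes, 12.7% higher and 10.5% lower. Without WT 50, Il3ra was called higher (log2 fold change 1.17, adjusted p = 0.00918) and Epor lower (-0.58, 0.0497).

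In E12 against VF, Epor rose and the other 8 receptors had lower values, with no overlap for any of the 9. Epor, at 140.8 ± 29.4 CPM in E12 and 28.99 ± 5.7 CPM in VF, was called (log2 fold change 2.28, SE 0.32, adjusted p = 0.011). The other 8 had log2 fold changes from -1.67 for Il6st to -0.79 for Kit, of which 0 were called by edgeR, 3 had an unadjusted p under 0.05, and 3 were called by DESeq2 and 2 by limma-voom. The median over the 9 was -1.34, against -0.05 over all genes. In this fit 3.21% of all genes were called, 2.19% higher and 1.02% lower, while groups did not overlap for 59.5% of genes, 28.2% above and 31.3% below VF. DESeq2 called 855 of 17769 genes lower and limma-voom 513 of 13608. For the unadjusted p no share over all genes is given here.

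This comparison turned on how the WT libraries entered. With the 6 libraries of E12 and VF alone all 8 were called lower and Epor higher, with adjusted p from 6.8e-05 to 0.008, but so were 48% of all genes, 25.4% higher and 22.6% lower. Csf3r was nearest to a call in the joint fit, at 26.8 ± 10.4 CPM in E12 and 79.6 ± 5.21 CPM in VF (log2 fold change -1.57, SE 0.37, adjusted p = 0.057). Il6ra, at 12.9 ± 4.28 CPM in E12 and 32.5 ± 1.96 CPM in VF, came next (log2 fold change -1.34, SE 0.36, adjusted p = 0.1), followed by Csf2ra, at 13.7 ± 0.841 CPM in E12 and 30.8 ± 5.01 CPM in VF (log2 fold change -1.17, SE 0.35, adjusted p = 0.11). The others had adjusted p of 0.33 for Kit, 0.42 for Csf2rb2, 0.46 for Csf2rb, 0.51 for Il3ra and 0.55 for Il6st.

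Several marker lists moved with these differences. Of the erythroid markers 8 of 10 rose in E12 against VF, among them Klf1 by 2.67 on the log2 scale, beside Epor. Of the stem and multipotent progenitor markers 5 of 8 fell, of the megakaryocyte markers 4 of 8 tested fell, with no overlap for any of the 8 and a median log2 fold change of -2.33, and of the neutrophil precursor markers 2 of 10 fell, with sums of 1674 to 2243 CPM in E12 and 7024 to 13070 CPM in VF. Of the tested monocyte, B cell and T and NK cell markers 0 of 7, 0 of 7 and 0 of 4 were called. Of the mast cell, basophil and eosinophil markers 1 of 8 tested fell. The median log2 fold changes of these 4 lists were -0.89, 0.65, -1.43 and -2.54. Of all tested genes 2.19% rose and 1.02% fell. The part of any of these markers in the receptor levels was not tested. The call of Epor was lost without VF 1 (adjusted p = 0.0971), VF 2 (0.0534), VF 3 (0.0993), E12 1 (0.0648) or E12 5 (0.0514), though its log2 fold change stayed between 2.15 and 2.44 whichever of the 9 libraries was left out. The number of receptors called lower went the other way, to 5 without WT 50, 1 without WT 51 and 3 without WT 52. Calls over all genes rose as well, with those lower going from 139 of 13608 to 1498 of 13984, 275 of 13990 and 529 of 13990.

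For 6 receptors, Kit, Csf3r, Csf2rb, Csf2rb2, Il3ra and Il6ra, every E12 library lay below every VF library and above every WT library. Of all tested genes 11.6% had this order. These comparisons share libraries, so the order is given as a description.

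**Figure D3:**
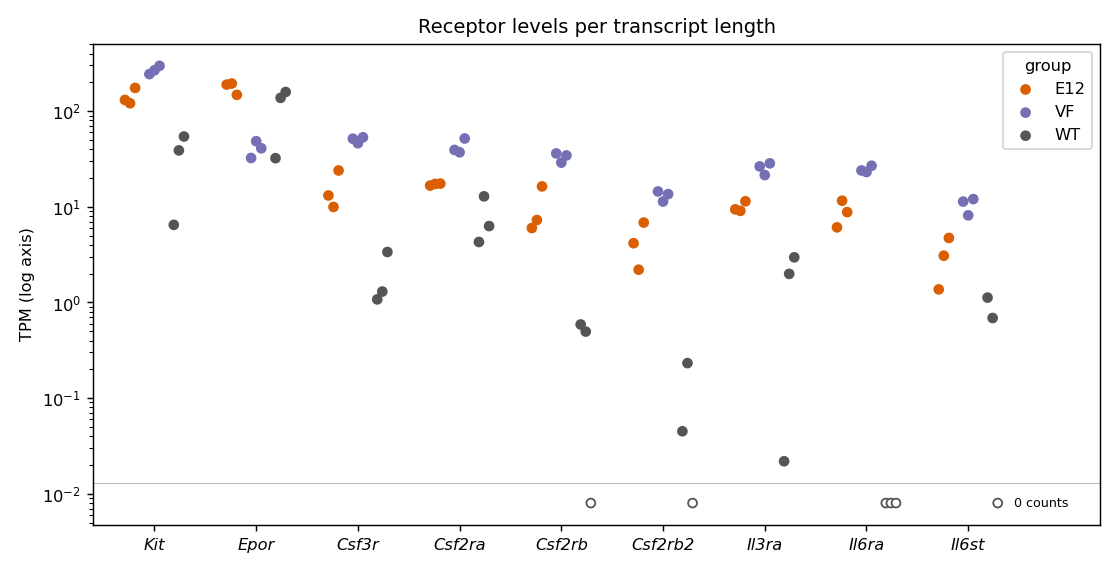
Level of each receptor per transcript length (TPM, log axis) in each library of E12, VF and WT. Open points under the line are libraries with 0 counts. Kit and Epor lie highest in E12 and WT, Kit alone in VF, and Il6ra has 0 counts in all 3 WT libraries.

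Levels of different receptors were set against each other only per transcript length. TPM does not remove the lean of the WT counts to short genes, so the order in WT is less certain. In E12 the order ran from Epor (177 ± 25.3 TPM) and Kit (142 ± 28.8 TPM), which overlapped, to Csf2ra (17.2 ± 0.426 TPM), Csf3r, Il3ra, Csf2rb, Il6ra, Csf2rb2 and Il6st (3.06 ± 1.68 TPM), of which each overlapped the next. In VF, Kit (269.5 ± 26.9 TPM) stood clear of Csf3r (50.3 ± 3.69 TPM), which overlapped Csf2ra (42.7 ± 7.91 TPM), as Csf2ra did Epor (40.6 ± 8.07 TPM) and Epor did Csf2rb (33.2 ± 3.76 TPM). Below them Il3ra and Il6ra overlapped, and Csf2rb2 and Il6st (10.5 ± 2.08 TPM) formed the lowest pair. In WT, Epor (109 ± 67.7 TPM) and Kit (33.2 ± 24.4 TPM) overlapped, Kit overlapped Csf2ra (7.81 ± 4.48 TPM), and the rest averaged under 2 TPM. Epor thus had rank 1 of 9 in E12 and WT and rank 4 in VF.

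Chains that pair in 1 receptor mostly did not have matched transcript levels. Per length, Csf2rb over Csf2ra was 0.360, 0.935 and 0.420 in E12 1, 2 and 5 and 0.920, 0.780 and 0.665 in VF 1, 2 and 3, against 0.137, 0.0386 and 0 in WT 50, 51 and 52. By these counts the beta chain was scarcer than the alpha chain in every library, and most so in WT. The ratio was near 1 in VF 1 and E12 2, and it rests on the uncertain split of reads between Csf2rb and Csf2rb2. Csf2rb (4765 bases) is also longer than Csf2ra (1849 bases), and TPM does not remove the lean of the WT counts to short genes. Csf2rb over Csf2rb2 was 2.50, 2.55 and 2.53 in VF, a narrow range, and 1.44, 2.39 and 3.31 in E12 1, 2 and 5. It was 13.07 in WT 50 and 2.14 in WT 51, from 7 and 27 counts of Csf2rb2, and undefined in WT 52. Il6st over Il6ra was 0.225 to 0.537 in E12 and 0.353 to 0.473 in VF, so the ligand-binding chain exceeded gp130 in all 6 mutant libraries. In WT the reverse held for WT 50 and WT 51, where Il6st had counts and Il6ra had none, and WT 52 had counts of neither.

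Gene length mattered for the comparisons with WT. Over tested genes under 1 kb the median log2 fold change was -1.84 in E12 against WT and -1.77 in VF against WT, and over genes longer than 5 kb it was 1.11 and 1.22. The lengths given by the authors are 1394 bases for Il3ra, 1829 for Epor, 1849 for Csf2ra, 3377 for Il6ra, 4047 for Csf3r, 4739 for Csf2rb2, 4765 for Csf2rb, 5181 for Kit and 5452 for Il6st. When a smooth trend on length was removed within each library, the VF calls stood at 7 higher and 1 lower, with Epor at -1.77 (adjusted p = 0.0077), Kit at 1.36 (0.0265) and Csf2ra at 2.05 (0.00118). In E12 against WT, 4 receptors were higher: Csf3r, Csf2rb2, Il6ra and Csf2ra (0.9, adjusted p = 0.0496). Kit (0.65, adjusted p = 0.257) and Csf2rb (2.7, adjusted p = 0.0894) lost their calls, and Epor changed sign, to 0.53 (adjusted p = 0.333). In E12 against VF, where the medians of the short and long classes were -0.03 and -0.16, Epor stayed at 2.31 (adjusted p = 0.0148) and Csf3r was called lower (-1.55, adjusted p = 0.0349). The share of all calls that were higher, 56.9% in E12 against WT and 57% in VF against WT, was 76.1% and 68.3% with the length term.

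**Figure D4:**
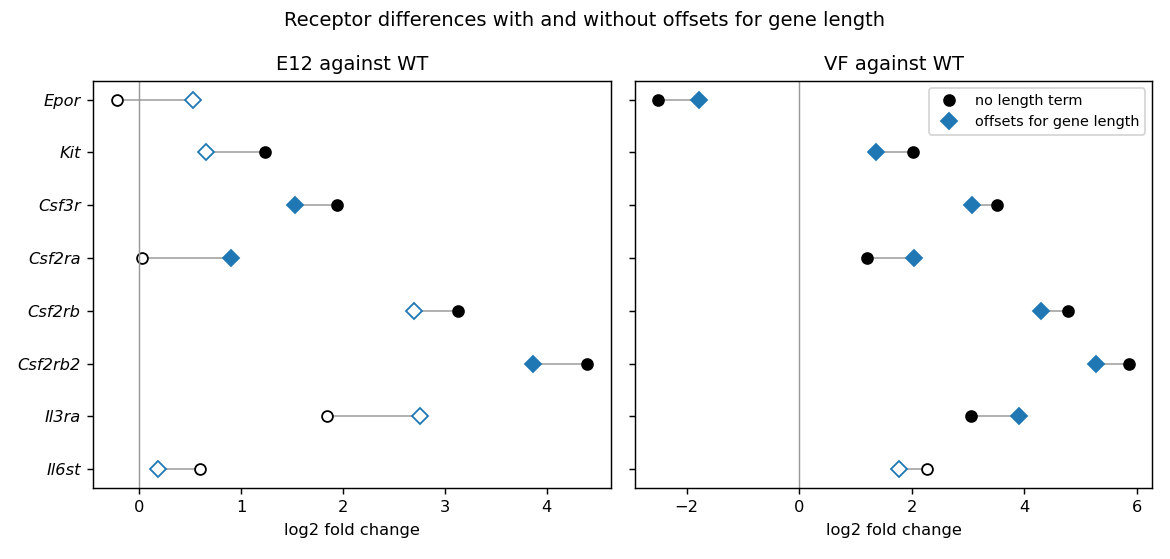
Log2 fold change of 8 receptors against WT without a length term (circles) and with offsets for gene length (diamonds), filled where the adjusted p is under 0.05. Il6ra is left out because it had no count in WT. In the VF panel each filled point stays filled, and in the E12 panel Kit and Csf2rb become open, Csf2ra becomes filled and Epor crosses 0.

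Other cytokine receptors were mostly higher in VF where they were called. Of all tested genes 27.7% rose and 20.9% fell in VF against WT by edgeR, with a median log2 fold change of 0.36. Of 24 receptors tested from a list of 29, 10 rose there, with a median of 1.73. The count that fell was 0, whether by edgeR, DESeq2 or limma-voom or at an unadjusted p under 0.05, but 1 without WT 50 and 2 without WT 52. Over all genes 3789 of 13984 fell without WT 50 and 3649 of 13990 without WT 52. Il4ra, the interleukin 4 receptor chain, had 1452 counts in E12 and 3697 in VF but 1 in WT, a ratio to WT of 1544 in E12 (95% counting interval 276.6 to 61020) and 3767 in VF (675.7 to 148800). Lifr, the receptor for leukemia inhibitory factor that pairs with Il6st, had 207 counts in E12 and 437 in VF but 2 in WT, ratios of 110 (30.08 to 914.7) and 222.6 (61.26 to 1844). WT had no count of Il12rb1, a chain of the interleukin 12 receptor, which was at least 90-fold higher in E12 and at least 139-fold higher in VF.

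In E12 against WT 5 of these 24 rose and 1 fell, neither above the 23.9% and 18.1% of all tested genes. The median log2 fold change of the 24 was 0.92, against 0.36 over all genes. Without WT 50 or without WT 52 there were 8 higher and 3 lower, and without E12 5 there were 2 lower. Over all genes 3977 of 13984 were higher and 3362 lower without WT 50, and 3894 of 13990 and 3425 without WT 52. Without E12 5, 1552 of 13930 genes were lower. The receptor that fell with all 9 libraries was Il15ra, which presents interleukin 15. It was at 10.4 ± 0.530 CPM in E12 and 35.2 ± 10.95 CPM in WT (log2 fold change -1.76, SE 0.3, adjusted p = 0.0032). In E12 against VF 2 fell, Il15ra again (log2 fold change -1.48, adjusted p = 0.034) and Il11ra1, the interleukin 11 chain that also pairs with Il6st (27.1 ± 8.01 CPM in E12 and 91.8 ± 4.1 CPM in VF, log2 fold change -1.76, adjusted p = 0.029). The count that rose there was 0 by edgeR, DESeq2 and limma-voom and 1 at an unadjusted p under 0.05. By edgeR 2.19% of all tested genes rose there and 1.02% fell. The 2 receptors that fell became 0 without any 1 VF or E12 library. They became 9 without WT 50, where 1498 of 13984 tested genes fell. With the 2 groups alone they became 11, where 22.6% of all genes fell. Of the class III receptor tyrosine kinases, the family of Kit, 3 were tested and Flt3 and Pdgfrb rose in both mutants. The shares of all tested genes that rose against WT were 23.9% in E12 and 27.7% in VF. Flt3, a receptor of early lymphoid and myeloid progenitors, was at 47.5 ± 13.1 CPM in E12 and 92.03 ± 15.8 CPM in VF, against 2.625 ± 3.95 CPM in WT, with log2 fold changes of 4.22 (adjusted p = 0.014) in E12 and 5.18 (adjusted p = 0.0058) in VF. With E12 and WT fitted alone, 0 of the 3 were called.

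Of 13 ligands listed, 4 could be tested, and in each mutant 2 rose and 1 fell against WT. Over all tested genes 23.9% rose and 18.1% fell in E12, and 27.7% rose and 20.9% fell in VF. Csf1, which drives macrophage production, was at 0.974 ± 0.583 CPM in E12 and 5.292 ± 1.77 CPM in VF without a count in WT, at least 25-fold and 140-fold higher. Il6, the ligand of Il6ra, had 31 counts in E12, 61 in VF and 0 in WT, at least 11-fold and 20-fold higher. Flt3l was lower in both, at 10.1 ± 0.872 CPM in E12 and 10.8 ± 0.499 CPM in VF, against 33 ± 9.53 CPM in WT (adjusted p = 0.0038 and 0.003). Osm, which signals through Il6st, was at 31.4 ± 7.6 CPM in E12 and 13.02 ± 0.485 CPM in VF, a difference that was not called (adjusted p = 0.54). With the length offsets the count of ligands called lower was 0 in both comparisons with WT.

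Inside the cell, 6 of 8 kinases and STAT factors rose in E12 against WT and 6 of 8 in VF against WT, with medians of 1.12 and 1.27. Of all tested genes 23.9% and 27.7% rose, with medians of 0.36. Jak2 was at 38.9 ± 2.65 CPM in E12 and 87.5 ± 4.71 CPM in VF, against 23.95 ± 12.7 CPM in WT, and rose in VF against WT (adjusted p = 0.0028) but was not called in E12 against WT (log2 fold change 0.70, adjusted p = 0.12) or E12 against VF (-1.17, adjusted p = 0.1). Jak3, a kinase of lymphoid receptors, had the smallest p in both comparisons with WT, at 41.5 ± 16.3 CPM in E12 and 76.9 ± 4.4 CPM in VF, against 4.599 ± 0.810 CPM in WT. With the length offsets the higher calls in this list were 2 of 8 in E12 and 4 in VF, beside 2732 and 3537 of all 13608 genes. With the 2 groups alone they were 3 and 5, beside 12.7% and 21.3% of all genes.

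Of 24 adaptors and regulators that bind or trim these receptors, 11 rose in E12 against WT, with a median of 0.9. In VF against WT 15 rose and 1 fell, with a median of 1.18. Of all tested genes 23.9% rose in E12 and 27.7% in VF, with medians of 0.36. With the length offsets the higher calls were 6 of the 24 in E12 and 7 in VF. Those over all 13608 genes were then 2732 and 3537, shares close to those of the list. Sos1, the exchange factor that leads from receptors to Ras, was at 28.2 ± 1.06 CPM in E12 and 35.6 ± 1.11 CPM in VF, against 4.927 ± 1.73 CPM in WT (adjusted p = 0.0012 and 4e-04). Adam10 and Adam17, proteases that shed the Il6ra ectodomain, rose in both, Adam17 by a log2 fold change of 1.25 in each. Cbl, which tags Kit and other receptors for breakdown, was at 29.6 ± 8.89 CPM in E12 and 30.4 ± 1.81 CPM in VF, against 3.032 ± 2.5 CPM in WT (adjusted p = 0.0034 and 0.0019). Pik3r2, a regulatory subunit of PI3-kinase, followed Epor instead, at 93.4 ± 7.47 CPM in E12 and 29.7 ± 2.95 CPM in VF, against 109.5 ± 39.9 CPM in WT, and was called higher in E12 against VF (adjusted p = 0.019) and lower in VF against WT (adjusted p = 0.0011). Dok2, an adaptor that restrains signalling in myeloid cells, was lower in E12 against VF (log2 fold change -1.46, adjusted p = 0.031). In E12 against VF, without any 1 VF or E12 library 0 adaptors were called, and without WT 50 there were 2 higher and 4 lower. Without WT 50 the adaptors called lower were 2 in E12 and 4 in VF against WT. Over all 13984 genes tested without WT 50, 1792 were higher and 1498 lower in E12 against VF. Those lower against WT were 3362 in E12 and 3789 in VF.

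Genes with the most similar pattern over the 9 libraries were found by the root mean square difference of log2 CPM, each gene centred on its mean, among 8693 other genes with a mean of at least 10 CPM. For Epor, whose log2 levels spanned 3.03, they were Ces2g, Slc25a38 and Reep6 at differences of 0.217, 0.235 and 0.285. For Kit, spanning 3.27, they were Clstn3, Fbxo21 and Triobp at 0.125, 0.127 and 0.144. For Csf3r, spanning 4.34, Adgrg1, Bmpr2 and Plcb2 lay at 0.273, 0.308 and 0.314. For Il6st, spanning 8.34 because of its 0 in WT 52, the nearest were Ncf4, Ffar2 and Rgs2 at 0.528, 0.585 and 0.592.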

How the data were processed

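RNA from sorted MEP was extracted with PicoPure and made into SmartSeq 2 libraries, per the labels' protocols, a method that copies whole transcripts without molecular identifiers or strand. The authors deposited a table of whole read counts per gene for the 9 libraries, together with each gene's length. STAR, limma, GRCm38 and mm10 are named in the submitters' processing notes, and how reads were counted is not given in the sources used here. A second deposited table holds log2 expression levels by the authors, used only as an alternative. In each library their order is that of the counts (Spearman correlation 1), and their sorted upper values differ between libraries by at most 0.017.

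Counts were tested with edgeR 4.0.16 (R 4.3.3): filterByExpr, TMM factors and 1 quasi-likelihood fit of all 9 libraries by group. All p-values are two-sided. SE is the log2 fold change over the root of its F statistic. TPM was computed from the counts and the given lengths. Folds over a group without counts are lower bounds that give that group 3 counts in all. Ratios against 1 to 3 counts carry exact 95% binomial intervals. Intervals and floors cover counting error only. No 2 libraries of a group agreed within sampling noise (chi-square per gene 12.1 to 1264). Positions come from RefSeq and matched all 9 genes.

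The named genes are all 9 receptors, the 2 tested genes with the smallest p in each pathway list and comparison (4 in lists of over 20 genes), defining markers of other cells, and the 3 genes most like Epor, Kit, Csf3r and Il6st. Il6, Camp, S100a8, Ltf, Itgb3, Gp6, Gfi1, Mecom, Procr and Tek were named after their values were seen. The text leaves out a few genes the rule names. The receptors and lists were chosen with earlier results of these data known.

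The results were recomputed with upper-quartile and RLE factors, 2 other filters, DESeq2 1.42.0, limma-voom and limma 3.58.1 on the deposited levels, the 2 groups alone, offsets for gene length (a lowess trend with span 0.5, median 0 per library), Csf2rb and Csf2rb2 summed, a replicate block, and leaving out libraries. The deposited log2 levels allow no other pseudocount. Figures were drawn with matplotlib 3.10.9.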

Additional observations from a re-analysis of the deposited data

How the results depend on the processing

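In VF against WT the receptors called higher numbered 5 to 8 and the 1 called lower was Epor under every alternative run, including each library left out. The share of all genes called there, 48.6%, became 37.4% with the 2 groups alone, 38.1% with length offsets and 34.2% to 59.9% with 1 library left out. In E12 against WT the 5 higher became 2 with the 2 groups alone and 3 to 6 with 1 library left out, and the 0 lower became 0 to 1. In E12 against VF the 1 higher became 0 to 1 with 1 library left out. The 0 lower there became 1 with upper-quartile factors, 3 by DESeq2, 2 by limma-voom, 1 on the deposited levels, 8 with the 2 groups alone, 1 with length offsets, 4 without WT 50 and E12 5 together and 0 to 5 with 1 library left out. The cause was not tested. Signs turned only in E12 against WT, for 3 receptors that were not called. Epor was at 0.21 on the deposited levels and 0.53 with length offsets. Csf2ra was at -0.22 with RLE factors, -0.04 with upper-quartile factors, -0.19 with every gene that had a count, -0.21 by DESeq2, -0.55 on the deposited levels, -0.04 without WT 50 and E12 5 together and -0.52 to 0.08 with 1 library left out. Il6st ran from -0.28 to 2.08 with 1 library left out. The median log2 fold change of all genes in VF and E12 against WT, 0.36 in both, was 0.21 and 0.17 with RLE factors and 0.47 and 0.49 with length offsets. Calls over all genes moved most in E12 against VF, where 3.21% became 9.52% by DESeq2, 6.79% by limma-voom, 13.1% on the deposited levels, 48% with the 2 groups alone, 6.14% with length offsets, 18.4% without WT 50 and E12 5 together and 0.137% to 23.5% with 1 library left out, and the share of them that were higher, 68.2%, became 49.4% by DESeq2. In E12 against WT 42% became 23.2% with the 2 groups alone, 26.4% with length offsets and 25.9% to 52.5% with 1 library left out.

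VF and E12 share the replicate numbers 1 and 2, which the labels tie to no shared animal or day, and deviations of same-numbered libraries correlated at 0.01 and 0.103. With these 4 libraries and a replicate block, 8 receptors were lower and 1 higher in E12 against VF, where 40.4% of all genes were called. WT shares no number with them. A count of 0 in WT, for Il6ra in all 3 libraries and for Csf2rb, Csf2rb2 and Il6st in WT 52, allows a level of up to 0.0934 to 0.166 CPM.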
